A study of Mus musculus with 20 samples.

Results

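The levels of 10 transcripts of cellular antioxidant defense were followed in the left ventricle of mice fed 4 diets. They were Nqo1, Hmox1, Gclc, Gclm, Txnrd1 and Srxn1, which are classical targets of the transcription factor NRF2, and Cat, Sod2, Gpx1 and Gpx3, which encode enzymes that remove superoxide or peroxides. The 10 were chosen by gene symbol from the 15956 genes listed in the count table, and all 10 were present and passed the filter on low counts. Each diet group held 5 mice, 20 in all. NP mice received normal protein at normal fat, LP mice low protein at normal fat, HF mice high fat at normal protein, and HF + LP mice high fat with low protein. According to the methods of the study all were male, casein was the protein source in every diet, and the diets began in middle age. In the sample labels the mice are 18 months old, whereas the methods give a younger age at collection, and the strain is not given in the sources used here. Transcripts were sequenced from their 3′ ends (QuantSeq), and counts made this way do not depend on how long a transcript is.

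Under resting conditions KEAP1 binds NRF2 (gene symbol Nfe2l2) and directs it to degradation. Oxidants and electrophiles disable KEAP1, and NRF2 then pairs with small MAF proteins at antioxidant response elements, where BACH1 competes with it. Its targets make glutathione, recharge thioredoxin and peroxiredoxins, reduce quinones and break down heme. Cardiomyocytes hold many mitochondria, which release superoxide. SOD2 turns superoxide into hydrogen peroxide, which catalase, glutathione peroxidases and peroxiredoxins then remove.

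Libraries held 12559607 to 23331907 counts, and mitochondrial transcripts took 35.4% to 47.2% of them. Cardiomyocyte markers were abundant in every library, at 37620 to 50440 CPM (counts relative to library size) for the 8 markers together. Some libraries stood apart. The 6 atrial markers together (Nppa, Myl4, Myl7, Sln, Bmp10 and Nr2f2) ranged from 81.1 to 17760 CPM and exceeded 4000 in 5 libraries, namely LP mice 13 and 15, HF mice 1 and 3, and HF + LP mouse 3. T cell markers reached 356 CPM in LP mouse 20 and 2.2 to 9.77 in the other mice. LP mouse 13 had the lowest median correlation with the other mice of its group, at 0.908. Values without these libraries stand beside results that change when they are left out.

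Values are given as normalized counts, that is, counts scaled to a common effective library size by TMM. Differences between diets are log2 fold changes from edgeR with all 20 mice in 1 model. A gene was called when its Benjamini-Hochberg adjusted p over all 13991 genes tested was under 0.01 and its base mean, the average normalized count over the 20 mice, exceeded 50. Base means ran from 40.7 for Hmox1 to 9004 for Sod2. Gpx3 followed Sod2 at 5646, Cat at 2525 and Gpx1 at 1662. Nqo1 (548), Srxn1 (436), Txnrd1 (410), Gclm (208) and Gclc (128) lay lower. Hmox1 was under the base mean minimum and could therefore not be called.

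The high-fat diet was compared with NP to ask how the defense genes stood under fat feeding. In HF hearts Srxn1 was 1.39-fold and Gpx1 1.47-fold the NP level, and for both genes the ranges of HF and NP mice did not meet. Groups without overlap occurred in 5.67% of all genes tested in this comparison. Gclm was 1.23-fold the NP level with overlapping groups. Sod2, Gclc and Cat lay within 1.06-fold of NP. All 10 log2 fold changes were above 0, against 49.8% of all genes tested, and their median was 0.26, against 0.00 over all genes. Over 31 alternative settings the number above 0 was 8 to 10 and the median 0.09 to 0.32. The median was 0.164 without HF mouse 2, 0.17 without HF mouse 1 and 0.089 with the animal number as a replicate block. NP mice 6 and 8 and LP mice 13, 15 and 20 share their number with no other mouse, so the block fits each of them exactly. Diet differences with the block therefore rest on NP mice 3, 4 and 5, LP mice 2 and 5, and the HF and HF + LP mice. Library names begin with a number from 1 to 3, and within these numbers (1, 1 and 3 HF mice against 1, 2 and 2 NP mice) HF minus NP was above 0 in 7, 8 and 6 of the 10. Gclm, Srxn1 and Gpx1 were above 0 in all 3 numbers, and the other 7 were below 0 in at least 1, as in Nqo1 with −0.317, −0.112 and 0.57 in log2 CPM. There were 3 with an unadjusted p under 0.05 in the whole model, all higher, where 5.17% of all genes were higher and 7.91% lower at that level. None of the 10 was called by edgeR, and 0.264% of all genes were. DESeq2 called Srxn1 and Gpx1, 2 of the 10, among 158 genes it called in all (0.99% of 15956).

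**Figure D1:**
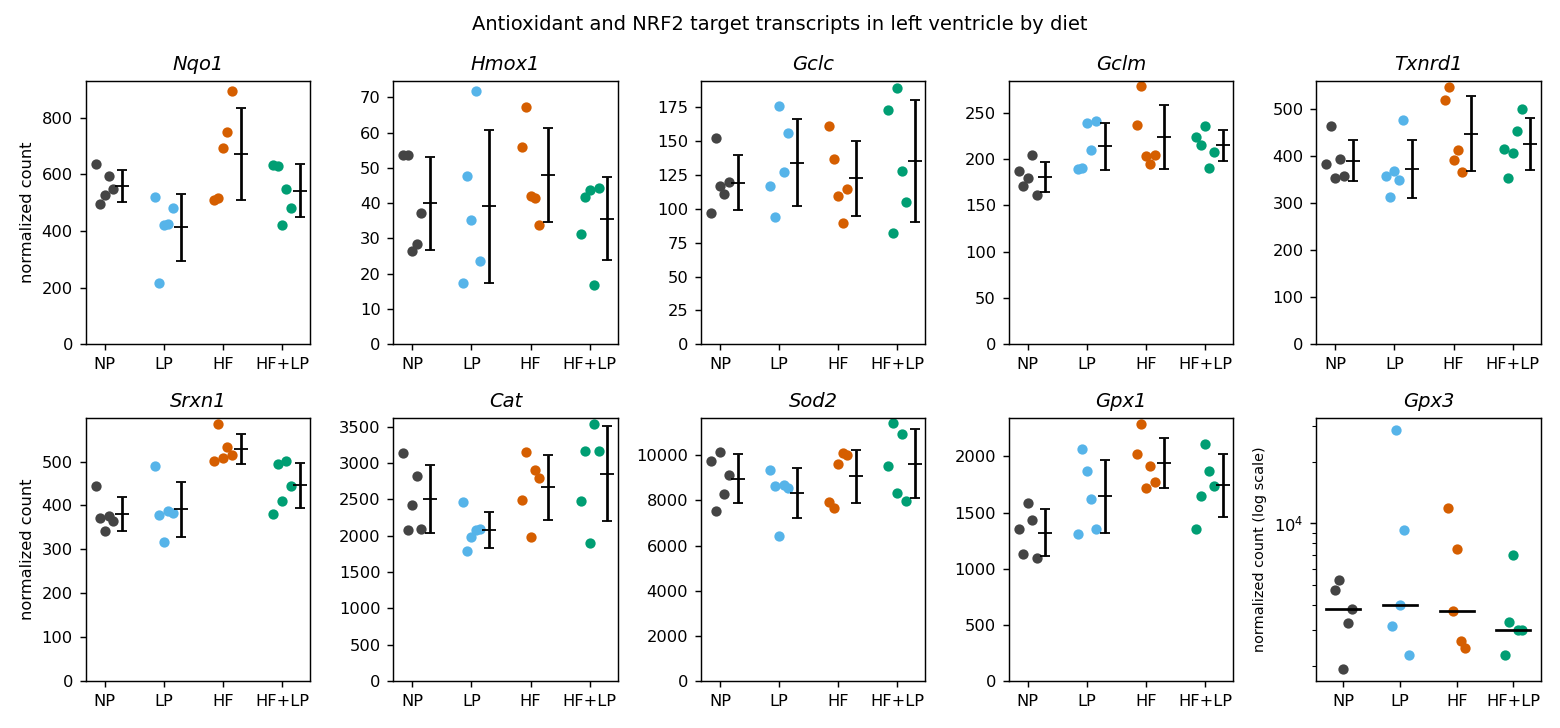
Normalized counts (y axis, linear except for Gpx3, which has a log axis) of the 10 transcripts in the 5 mice of each diet (x axis). Points are mice, black bars beside them the mean with its SD, and for Gpx3 the line is the median. All 5 HF mice lay above all 5 NP mice for Srxn1 and Gpx1, and 1 LP mouse stood at 28660 for Gpx3.

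Srxn1 (ENSMUSG00000032802, GRCm38 chr2:152105516-152111376, plus strand) encodes sulfiredoxin, which restores peroxiredoxins that have been overoxidized. Its normalized counts were 341, 365, 371, 375 and 445 in the NP mice and 502, 509, 515, 534 and 586 in the HF mice. LP mice held 317, 379, 382, 387 and 490. HF + LP mice held 380.2, 409.9, 443, 494 and 501. HF mice were thus the highest group, with a mean of 529 ± 34.1 (SD, n = 5) and no overlap with either NP or HF + LP. The means in NP, LP and HF + LP were 379.6 ± 39.0, 391 ± 62.1 and 446 ± 52.2 (SD, n = 5 each). LP and NP overlapped, and so did LP and HF + LP.

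HF exceeded NP for Srxn1 by 0.48 on the log2 scale (SE 0.11, 95% interval 0.25 to 0.71, edgeR adjusted p = 0.0364), which ranked it 134 by p among the genes tested. It was the only 1 of the 10 with an adjusted p under 0.05 there, a level that 1.37% of all genes passed. The log2 difference ran from 0.44 to 0.54 over the alternatives, and the adjusted p from 0.00169 with DESeq2 to 0.125 with the animal number as a replicate block. Over both protein levels (the fat main effect) the difference was 0.34 (SE 0.08, adjusted p = 0.0186), and 4.63% of all genes had an adjusted p under 0.05. The adjusted p of that effect was 0.00107 with DESeq2, 0.198 with the replicate block and 0.0408 without HF + LP mouse 4, the highest with a single mouse left out. It passed the call threshold when LP mouse 2, the LP mouse with the most Srxn1, was left out, at a log2 difference of 0.38 and an adjusted p of 0.00645. Without the 5 libraries rich in atrial markers HF exceeded NP by 0.52 (SE 0.14, adjusted p = 0.0706). Within the 3 leading numbers of the library names HF minus NP was 0.17, 0.71 and 0.49 in log2 CPM.

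Srxn1 was lower in HF + LP than in HF, with a log2 difference of −0.25 (95% interval −0.48 to −0.02, unadjusted p = 0.0372, adjusted p = 0.967). The groups did not overlap, which held for 1.18% of all genes in that comparison. HF + LP and LP differed by 0.19 (95% interval −0.04 to 0.42). The interaction of fat and protein was −0.29 for Srxn1 (95% interval −0.62 to 0.04), so that a difference in the fat response between protein levels was not resolved.

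Sequence near the start of Srxn1, Gclm and Txnrd1 is shown because these were the only ones, of the 8 of the 10 genes matched in the RefSeq promoter table, with a match in the 250 bases before the annotated start. Searched on both strands were the antioxidant response element core TGACNNNGC, its variant TGAGNNNGC and the AP-1 site TGACTCA, which can overlap the cores. Capitals mark the matches, and the stretches run 5′ to 3′ on the plus strand of GRCm38.p6 at chr2:152105354-152105493, chr3:122245392-122245461 and chr10:82859083-82859152.
Srxn1: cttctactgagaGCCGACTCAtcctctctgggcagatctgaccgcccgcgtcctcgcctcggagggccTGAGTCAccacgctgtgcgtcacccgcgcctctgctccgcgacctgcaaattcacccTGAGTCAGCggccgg
Gclm: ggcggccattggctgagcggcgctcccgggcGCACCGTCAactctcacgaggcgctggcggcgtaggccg
Txnrd1: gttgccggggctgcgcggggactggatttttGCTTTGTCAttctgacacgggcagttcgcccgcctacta

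The Srxn1 stretch held the variant core at 158 to 150 and at 45 to 37 bases before the start, and the AP-1 letters at 102 to 96 and at 45 to 39 bases, the last inside the second core. Gclm held the TGACNNNGC core on the minus strand at 134 to 126 bases, and Txnrd1 the same core at 92 to 84 bases before 1 of its starts. Across 32851 RefSeq promoters of the same length, 10.2% held TGACNNNGC, 14.4% TGAGNNNGC, 4.46% TGACTCA and 26% at least 1 of them. These letters were not found in the windows of Nqo1, Cat, Sod2, Gpx1 and Gpx3, and Hmox1 and Gclc were not matched.

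Gclc and Gclm encode the catalytic and the modifier subunit of glutamate-cysteine ligase, which carries out the rate-limiting step of glutathione synthesis. Gclm (ENSMUSG00000028124, GRCm38 chr3:122245557-122270732, plus strand) stood at 161, 170.5, 179, 187 and 204 normalized counts in NP, and at 194.5, 203.5, 204, 236.5 and 278 in HF. The LP mice held 189, 191, 209, 239 and 241, and the HF + LP mice 190.4, 207, 215, 224 and 236. NP was the lowest group, at 180.3 ± 16.5 (SD, n = 5), and the other 3 means lay between 214 and 223. HF exceeded NP by 0.30 on the log2 scale (SE 0.11, unadjusted p = 0.015, adjusted p = 0.23). LP exceeded NP by 0.24 (95% interval 0.01 to 0.48, unadjusted p = 0.0444, adjusted p = 0.681). HF + LP differed from LP by 0.00 (95% interval −0.23 to 0.24). Erythroid markers moved with Gclm, and all 8 had log2 fold changes above 0 in HF and in LP against NP. Gclm had an r of 0.617 with the erythroid marker score, the mean over the markers of log2 CPM centred on the 20 mice (permutation p = 0.00388, adjusted p = 0.0521 over 110 pairs of transcript and marker list, rho 0.46 with permutation p = 0.0437, r 0.383 without the pair of mice farthest from the median). With the pericyte and smooth muscle score the r was −0.638 (permutation p = 0.00251, adjusted p = 0.0521, rho −0.666 with permutation p = 0.00183, r −0.679 without the farthest pair), and 7 of these 8 markers were below 0 in HF against NP. With the log2 of the summed markers, an alternative added after seeing the data, these r were 0.493 and −0.236. The part of these cell types in the Gclm differences was not tested. Gclm shares its position with the antisense gene Gm17494 and a processed pseudogene, Gm6061, so a count may hold reads of these.

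Gclc (ENSMUSG00000032350, GRCm38 chr9:77754535-77794485, plus strand) ranged from 96.7 to 152 in NP, 94.35 to 176 in LP, 89.8 to 162 in HF and 82.3 to 189 in HF + LP. The 4 groups overlapped widely. No comparison reached an unadjusted p of 0.05 for Gclc, and HF and NP differed by 0.03 on the log2 scale (95% interval −0.42 to 0.49). The catalytic and the modifier subunit were thus measured with unlike precision, since the SE of that difference was 0.22 for Gclc and 0.11 for Gclm.

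Txnrd1 (ENSMUSG00000020250, GRCm38 chr10:82833951-82897712, plus strand) encodes the cytosolic thioredoxin reductase, a selenoprotein. It ranged from 354 to 464 normalized counts in NP, 313 to 478 in LP, 367 to 548 in HF, and 355 to 500.1 in HF + LP. All 4 groups overlapped. Its fat main effect was 0.19 on the log2 scale (95% interval −0.01 to 0.39, unadjusted p = 0.056), and no comparison reached an unadjusted p of 0.05. Eid3 and 2 noncoding genes lie within the Txnrd1 locus.

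Nqo1 (ENSMUSG00000003849, GRCm38 chr8:107388225-107403206, minus strand) encodes NAD(P)H quinone dehydrogenase 1, which reduces quinones without forming radicals. Its normalized counts were 494, 526, 549.6, 596 and 637 in NP and 215, 422, 425, 482 and 521.5 in LP. HF mice held 511, 518, 692.5, 749.7 and 896. HF + LP mice held 422, 480.5, 549.9, 629 and 633. HF was the highest group at 673 ± 163 and LP the lowest at 413 ± 118 (SD, n = 5 each), and 4 of 5 LP mice lay below every NP mouse.

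Nqo1 was lower in LP than in NP, with a log2 difference of −0.44 (fold 0.735, SE 0.20, unadjusted p = 0.0343, adjusted p = 0.654). The log2 difference over both fat levels was −0.38 (SE 0.14, unadjusted p = 0.0125, adjusted p = 0.779), the only 1 of the 10 under an unadjusted p of 0.05 for the protein main effect. That level was passed by 5.47% of all genes, with 3.4% higher and 2.08% lower. Over both protein levels high fat exceeded normal fat by 0.33 (95% interval 0.04 to 0.62, adjusted p = 0.171). This ran from 0.22 to 0.40 over the alternatives, with an unadjusted p from 0.0112 to 0.218. The lowest Nqo1 value came from LP mouse 13, the library richest in atrial markers. Without it the log2 difference between LP and NP was −0.28, and without all 5 libraries rich in atrial markers it was −0.23 (unadjusted p = 0.166). With the replicate block it was −0.13 (unadjusted p = 0.674). The protein main effect of Nqo1 was −0.29 (unadjusted p = 0.0251) without those 5 and −0.22 (unadjusted p = 0.24) with the block. The atrial score had an r of −0.559 with Nqo1 (permutation p = 0.00566, adjusted p = 0.0623), and −0.312 without the farthest pair. For the adipocyte score the r was −0.529 (permutation p = 0.0179, adjusted p = 0.109), and −0.025 without that pair. In LP against NP 5 of 6 atrial and all 8 adipocyte markers were above 0. The part of these cell types in the Nqo1 differences was not tested.

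Hmox1 (ENSMUSG00000005413, GRCm38 chr8:75093621-75100589, plus strand) encodes heme oxygenase 1, the inducible enzyme that breaks down heme. It was the scarcest of the 10, with 801 counts over all libraries. Normalized counts ranged from 26.4 to 53.8 in NP, 17.3 to 71.8 in LP, 33.75 to 67.2 in HF and 16.8 to 44.3 in HF + LP. The groups overlapped, and no comparison reached an unadjusted p of 0.05. The 95% interval of HF against NP was −0.44 to 0.97 on the log2 scale. LP and NP differed by −0.02, but by −1.38 with the animal number as a replicate block (unadjusted p = 0.0206, adjusted p = 0.752) and by −0.61 without the libraries rich in atrial markers (unadjusted p = 0.118). In the block LP rests on mice 2 and 5, the lowest LP mice for Hmox1, at 17.3 and 23.6. With the block the protein main effect of Hmox1 moved from −0.22 to −0.90 (unadjusted p = 0.0115, adjusted p = 0.432) and HF + LP against LP from −0.14 to 0.95 (unadjusted p = 0.0674). In a marker score every marker has equal weight. Hmox1 had a Pearson r of 0.575 with the macrophage score (permutation p = 0.00795, Spearman rho 0.51 with permutation p = 0.0236), and 0.631 without the pair of mice farthest from the median. It did not pass correction over the 110 pairs (adjusted p = 0.0625), and with the summed markers the r was 0.515 (permutation p = 0.0209).

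Gpx1 (ENSMUSG00000063856, GRCm38 chr9:108338903-108340343, plus strand) encodes the most widespread glutathione peroxidase, a selenoprotein of cytosol and mitochondria that is also abundant in red cells. Its normalized counts were 1094, 1132, 1356, 1433 and 1589 in NP and 1723, 1773, 1915, 2020 and 2285 in HF. LP mice held 1309, 1349, 1625, 1866 and 2067, and HF + LP mice 1349, 1645, 1735, 1869 and 2113. The order of the means was HF at 1943 ± 224, HF + LP at 1742 ± 282, LP at 1643 ± 327 and NP at 1321 ± 208 (SD, n = 5 each), and each neighbouring pair in that order overlapped.

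HF exceeded NP for Gpx1 by 0.56 on the log2 scale (SE 0.14, 95% interval 0.25 to 0.86, unadjusted p = 0.00102, edgeR adjusted p = 0.061). The adjusted p ran from 0.00653 with DESeq2 to 0.183 with the replicate block. Within the 3 leading numbers of the library names HF minus NP was 0.575, 0.598 and 0.695 in log2 CPM. LP exceeded NP by 0.32 (unadjusted p = 0.0411, adjusted p = 0.671), and by 0.12 without LP mice 13 and 20 (unadjusted p = 0.435). HF + LP differed from LP by 0.08 (95% interval −0.22 to 0.38). Over the alternatives this ran from 0.01 to 0.36, LP against NP from 0.03 to 0.39 and the interaction from −0.58 to −0.20. The interaction for Gpx1 was −0.47 (95% interval −0.90 to −0.05, unadjusted p = 0.0315, adjusted p = 0.684), and −0.28 without LP mice 13 and 20 (unadjusted p = 0.158).

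Erythroid markers moved with Gpx1. Their sum was 3260 to 10100 CPM in NP, 6228 to 14340 in LP, 6189 to 13540 in HF and 4247 to 18780 in HF + LP, and no marker of the list was at a median of 0. All 8 erythroid markers had log2 fold changes above 0 in HF against NP, 2 of them with an unadjusted p under 0.05, and their median was 0.60. Across the 20 mice Gpx1 and the erythroid score had a Pearson r of 0.765 (permutation p = 7e-05, adjusted p = 0.00385 over the 110 pairs) and a Spearman rho of 0.641 (permutation p = 0.00323, adjusted p = 0.0592). The r was 0.689 without the pair of mice farthest from the median and 0.707 within diets. With the log2 of the summed markers in place of the score, r was 0.827 and rho 0.737 (permutation p = 1e-05 and 0.00031). Mitochondrial transcripts took 41.3% to 47.1% of the counts in NP and 38.1% to 39.8% in HF, which do not overlap. The cardiomyocyte score had an r of −0.58 with Gpx1 (permutation p = 0.00754, adjusted p = 0.0625, rho −0.674 with permutation p = 0.00165, r −0.52 without the pair of mice farthest from the median), and 7 of the 8 cardiomyocyte markers were below 0 in HF against NP. With the summed cardiomyocyte markers the r was −0.289 (permutation p = 0.217) and the rho −0.255 (permutation p = 0.276). The macrophage score had an r of 0.539 (permutation p = 0.0138, adjusted p = 0.101, rho 0.577 with permutation p = 0.00852, r 0.535 without the farthest pair), and all 12 macrophage markers were above 0 in HF against NP. With the summed macrophage markers the r was 0.634 (permutation p = 0.00296, rho 0.639). The part of these cell types in the Gpx1 difference was not tested. In bulk tissue, a change in the number of cells of a type and a change in RNA per cell cannot be told apart.

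The endothelial score had a Pearson r of 0.675 with Srxn1 over the 20 mice (permutation p = 0.00134, adjusted p = 0.0491) and a Spearman rho of 0.638 (permutation p = 0.0032, adjusted p = 0.0592). The r was 0.575 without the pair of mice farthest from the median and 0.519 within diets. With the log2 of the summed markers the r was 0.231 (permutation p = 0.329) and the rho 0.34 (permutation p = 0.144), so this relation depends on how the markers are weighted. The sum of the 8 markers was 964.5 to 1417 CPM in NP and 1040 to 1974 in HF, which overlap, and the log2 fold changes of 7 of the 8 were above 0 in HF against NP. Fabp4, which adipocytes also express, had the highest median count of the 8, at 11892. The sum of the 12 macrophage markers was 465 to 618 CPM in HF, above all NP (320.8 to 454) and all HF + LP mice (302 to 439). The macrophage score had an r of 0.471 with Srxn1 (permutation p = 0.0362, adjusted p = 0.173), a rho of 0.534 (permutation p = 0.0168), an r of 0.41 without the pair of mice farthest from the median and of −0.02 within diets. The neutrophil score had an r of 0.499 with Srxn1 (permutation p = 0.026, adjusted p = 0.15, rho 0.531 with permutation p = 0.0171). It was 0.612 without the farthest pair and 0.38 within diets. All 3 neutrophil markers tested were higher in HF against NP at an unadjusted p under 0.05, with a median of 1.062. Neutrophil markers were scarce, with a sum of 4.29 to 21 CPM over all mice. The part of endothelial, macrophage and neutrophil RNA in the Srxn1 differences was not tested. By Pearson r Gpx1 with the erythroid and Srxn1 with the endothelial score were 2 of 3 pairs that passed correction over the 110, and the third was Gpx3 with the atrial score. By rank only Gpx3 with the atrial score passed, and with the summed markers Gpx3 with atrial and Gpx1 with erythroid markers passed by both measures.

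Cat (ENSMUSG00000027187, GRCm38 chr2:103453849-103485160, minus strand) encodes catalase, the peroxisomal enzyme that splits hydrogen peroxide. It stood at 2072, 2087, 2417, 2817 and 3140 normalized counts in NP and at 1786, 1985, 2073, 2096 and 2459 in LP. The HF mice held 1980, 2485, 2798, 2911 and 3152, and the HF + LP mice 1900, 2481, 3167, 3168 and 3537. LP was the lowest and most compact group, and 4 of 5 HF + LP mice lay above every LP mouse. HF + LP exceeded LP by 0.46 on the log2 scale (fold 1.37, SE 0.16, unadjusted p = 0.0111, adjusted p = 0.181), whereas HF exceeded NP by 0.09 (95% interval −0.25 to 0.43). The difference of these differences, the interaction, was 0.37 (95% interval −0.11 to 0.85) and did not pass the test. HF + LP mouse 3, the lowest of its group, is rich in atrial markers, and without the 5 such libraries the difference between HF + LP and LP was 0.49 (adjusted p = 0.19). It was 0.35 without LP mice 13 and 20 (unadjusted p = 0.0744). The adipocyte score had an r of −0.615 with Cat (permutation p = 0.00337, adjusted p = 0.0521, rho −0.696 with permutation p = 0.00094), −0.463 without the pair of mice farthest from the median and −0.469 within diets. With the summed adipocyte markers, which are mostly Fabp4, the r was −0.216 (permutation p = 0.362). The adipocyte score was 4.59 and 3.56 in LP mice 13 and 20, and −0.70 to 0.21 in the other LP mice. All 8 adipocyte markers were below 0 in HF + LP against LP, with a median of −4.685. The atrial score had an r of −0.595 with Cat (permutation p = 0.00673, adjusted p = 0.0625, rho −0.597 with permutation p = 0.00643), −0.479 without the farthest pair, and all 6 atrial markers were below 0 in that comparison. The part of these cell types in the Cat difference was not tested.

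Sod2 (ENSMUSG00000006818, GRCm38 chr17:13006846-13040063, plus strand) encodes the manganese superoxide dismutase of the mitochondrial matrix, and it was the most abundant of the 10. It ranged from 7527 to 10170 normalized counts in NP, 6429 to 9359 in LP, 7651 to 10120 in HF and 7966 to 11420 in HF + LP. The groups overlapped, and no comparison reached an unadjusted p of 0.05. The 95% interval of HF against NP was −0.25 to 0.28 on the log2 scale, the narrowest after those of Srxn1 and Gclm. The lowest value, 6429, came from LP mouse 20, the mouse with the high T cell markers.

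Gpx3 (ENSMUSG00000018339, GRCm38 chr11:54902453-54910377, plus strand) encodes the secreted glutathione peroxidase of plasma, another selenoprotein. Its normalized counts were 1936, 3256, 3806, 4713 and 5284 in NP and 2440, 2646, 3707, 7449 and 11820 in HF. LP mice held 2275, 3154, 3987, 9285 and 28660, and HF + LP mice 2259, 2995, 3008, 3292 and 6953. Most mice of every diet lay between 1936 and 5284, and the 5 values above that range came from 2 LP, 2 HF and 1 HF + LP mouse. These were the 5 libraries with atrial markers over 4000 CPM.

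Over the 20 mice the Pearson r of Gpx3 with the atrial score was 0.864 and the Spearman rho 0.88 (permutation p = 1e-05 for each, the smallest that 100000 resamples can give, adjusted p = 0.0011). The r was 0.835 without the pair of mice farthest from the median, 0.88 within diets, and 0.882 with the log2 of the summed markers (rho 0.869). LP exceeded NP for Gpx3 by 1.32 on the log2 scale (SE 0.58, unadjusted p = 0.0356, adjusted p = 0.66), and HF + LP against LP was −1.36 (SE 0.59, unadjusted p = 0.0313, adjusted p = 0.261). Without LP mouse 13 these values were 0.28 and −0.33. Without the 5 libraries rich in atrial markers they were −0.28 (unadjusted p = 0.311) and −0.13 (unadjusted p = 0.64), with 5 NP, 3 LP, 3 HF and 4 HF + LP mice left. The interaction of −1.92 (unadjusted p = 0.03) became 0.25 (unadjusted p = 0.527) without them. The cardiomyocyte score had an r of −0.632 with Gpx3 (permutation p = 0.00306, adjusted p = 0.0521, r −0.482 without the pair of mice farthest from the median). With the fibroblast score the r was 0.611 (permutation p = 0.00369, adjusted p = 0.0521, r 0.659 without the farthest pair). Within diets these were −0.627 and 0.718, and with the summed markers −0.533 and 0.599. The r of the adipocyte score with Gpx3 was 0.535 (permutation p = 0.0162, adjusted p = 0.105, rho 0.46 with permutation p = 0.043, and r 0.299 without the farthest pair). With the summed adipocyte markers the r was 0.287 (permutation p = 0.223). Fabp4, which is also on the endothelial list, dominates that sum, with a median count of 11892, against 1.5 to 43 for the other 7. The part of these cell types in the Gpx3 differences was not tested.

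**Figure D2:**
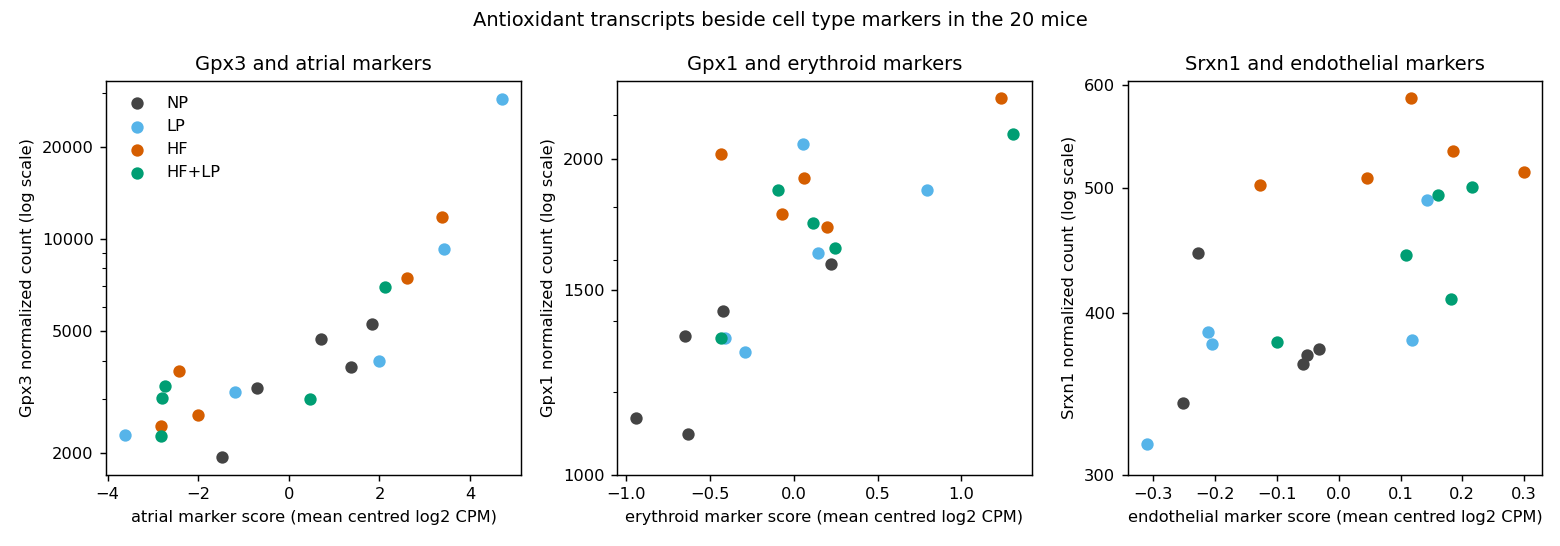
Normalized counts of Gpx3, Gpx1 and Srxn1 (y axes, log scale) against the atrial, erythroid and endothelial marker scores (x axes, mean over the markers of log2 CPM centred on the 20 mice), with 1 point for each of the 20 mice coloured by diet. The r values were 0.864, 0.765 and 0.675, and the 5 mice with atrial markers over 4000 CPM had the 5 highest Gpx3 values.

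Protein restriction on normal fat gave no common direction among the 10 transcripts. Of the log2 differences between LP and NP, 5 were above and 5 below 0 (54.6% of all genes were above), with a median of 0.01 against 0.02 over all genes. Nqo1 was lower and Gclm, Gpx1 and Gpx3 were higher at an unadjusted p under 0.05, a level passed by 7.23% of all genes (5.02% higher and 2.21% lower). None of the 10 had groups without overlap, which 0.786% of all genes had. Neither edgeR nor DESeq2 called any of the 10, edgeR called no gene at all (0%), and DESeq2 called 3 genes in all (0.0188%).

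Protein restriction on high fat was set against HF alone. There 7 of the 10 log2 differences were below 0 and 3 above (53.7% of all genes were above), with a median of −0.11 against 0.02 over all genes. Over the alternatives 2 to 5 were above 0, and without HF mouse 2 the 10 were split evenly, with 5 above 0 and a median of −0.04. Srxn1 was the only 1 under an unadjusted p of 0.05, which 4.84% of all genes passed, 2.41% higher and 2.43% lower. None was called by edgeR, which called no gene (0%), and DESeq2 called 0 of the 10 and 16 genes in all (0.1%). HF against NP and HF + LP against HF share the HF mice, so opposite signs in them are not independent. In Nqo1, Hmox1, Gclm, Txnrd1, Srxn1, Gpx1 and Gpx3 the 2 estimates had opposite signs, from 0.20 and −0.07 in Txnrd1 to 0.48 and −0.25 in Srxn1 and 0.56 and −0.60 in Gpx3. Without the 5 libraries rich in atrial markers the Gpx3 values were −0.38 (unadjusted p = 0.175) and −0.03 (unadjusted p = 0.913).

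High fat on low protein gave 8 of 10 log2 differences above 0 between HF + LP and LP (45.8% of all genes), with a median of 0.14 against −0.03. At an unadjusted p under 0.05 Cat was higher and Gpx3 lower, where 15.9% of all genes passed that level, 6.26% higher and 9.66% lower. None of the 10 had groups without overlap, against 1.87% of all genes. edgeR called 0 of the 10 and 0.1% of all genes, and DESeq2 called none of the 10 among 81 genes (0.508%). Pooled over protein levels, 9 of 10 fat differences were above 0 (46.9% of all genes), with a median of 0.17 against −0.02 and 4 higher at an unadjusted p under 0.05 (8.28% of all genes were), namely Srxn1, Gpx1, Nqo1 and Cat. No transcript of the 10 was called by edgeR for the fat main effect, against 1% of all genes, and DESeq2 called 1 of the 10, against 389 genes in all (2.44%). The interaction had 3 differences above 0 (49% of all genes) and 7 below. Gpx1 and Gpx3, 2 of the 10, passed an unadjusted p of 0.05, both below 0, and 7.17% of all genes did, 2.86% higher and 4.31% lower. For the protein main effect 4 of the 10 were above 0, against 56.2% of all genes. The protein main effect and the interaction had no call by edgeR in any gene (0%).

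**Figure D3:**
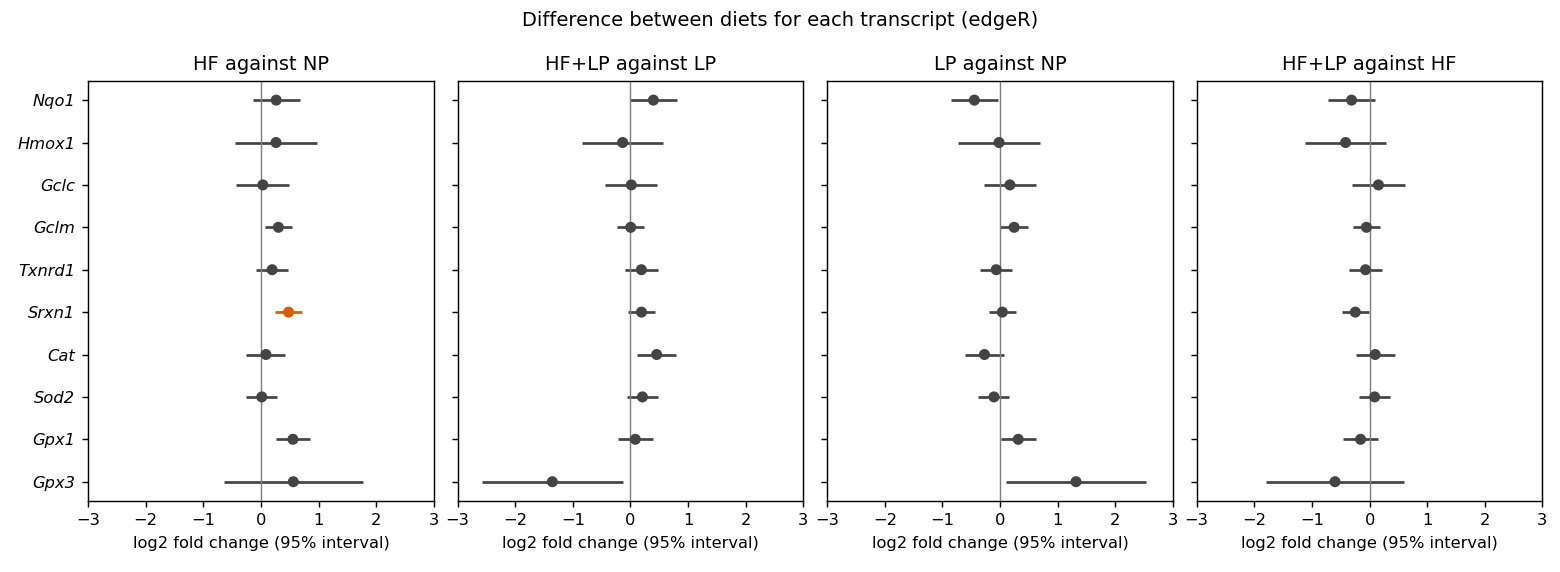
Log2 fold change (x axis) of each of the 10 transcripts (rows) in the 4 comparisons of 2 diets. Points are edgeR estimates, lines 95% intervals, and orange marks an adjusted p under 0.05, which only Srxn1 in HF against NP reached.

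Regulators of the pathway had no common direction under high fat. Of 14 tested, which include Nfe2l2, Keap1, Cul3 and Bach1, 7 were above and 7 below 0 in HF against NP, with a median of 0.03. Maff, a small MAF partner of NRF2, was the 1 of the 14 that passed an unadjusted p of 0.05 there, at 0.49 (adjusted p = 0.351), a level that 13.1% of all genes passed. For the fat main effect 2 of the 14 passed it, against 20.8% of all genes. Sqstm1, whose protein p62 sequesters KEAP1, was higher by 0.29 (adjusted p = 0.13) and Dpp3, a KEAP1-binding peptidase, had a log2 difference of −0.21 (adjusted p = 0.197). None of the 14 was called in any of the 7 comparisons, where edgeR called 0% to 1% of all genes. The lists that follow stand against the same shares.

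Other known NRF2 targets, 35 of the 40 listed ones after the filter, had no common direction in HF against NP, with 21 above and 14 below 0 and a median of 0.04. The aldehyde oxidase gene Aox1 stood at −0.58 (SE 0.15, adjusted p = 0.0591) and the export pump Abcc1 at −0.45 (adjusted p = 0.119), while the ferritin light chain Ftl1 stood at 0.45 (adjusted p = 0.261). These were the 3 of 35 with an unadjusted p under 0.05, against 13.1% of all genes, and none of the 35 was called in any comparison. In the fat main effect 6 of the 35 were higher and 4 lower at that level, where 8.28% of all genes were higher and 12.6% lower, led by Pir at 0.41, Aox1 at −0.35 and Prdx1 at 0.31 (adjusted p = 0.0606, 0.0624 and 0.0736).

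Among 35 dismutases, peroxiredoxins and thioredoxin and glutathione enzymes, of which Prdx1, Txn1 and Gsr are also in the list of NRF2 targets, 9 were higher and 0 lower in HF + LP against LP when the unadjusted p was under 0.05, where 6.26% of all genes were higher and 9.66% lower. They were led by Ggct, an enzyme of glutathione turnover, at 0.47, the methionine sulfoxide reductase Msrb1 at 0.47 and the peroxiredoxin Prdx6 at 0.37 (adjusted p = 0.132, 0.153 and 0.163). Without LP mice 13 and 20 the count was 1 higher and 1 lower, where 2.69% and 4.81% of all genes were, and the median was 0.14. Without the libraries rich in atrial markers 11 were higher and 0 lower, where 5.2% and 8.04% of all genes were, and with the replicate block 2 and 0, where 2.85% and 2.32% were. Markers of other cells differed in the same comparison. All 8 adipocyte markers (median −4.685, 7 at an unadjusted p under 0.05), all 4 T cell markers tested (median −3.503) and all 6 atrial markers were below 0, and 6 of the 8 cardiomyocyte markers were above 0. The T cell markers reached 356 CPM in LP mouse 20, against 3.59 to 9.77 in the other LP mice and 2.2 to 7.16 in HF + LP. The adipocyte score was 4.59 and 3.56 in LP mice 13 and 20. It was −0.70 to 0.21 in the other LP mice and −1.71 to 0.63 in HF + LP. The part of these cell types in the list's differences was not tested. In HF against NP 0 were higher and 1 was lower, where 5.17% and 7.91% of all genes were. It was Nnt, the mitochondrial transhydrogenase that supplies NADPH, at −0.30 (adjusted p = 0.275). The median of the 35 was 0.15 in HF + LP against LP and 0.00 in HF against NP, and none was called. A list of 19 selenoproteins and factors of selenium use shares Gpx4, Msrb1, Txnrd2 and Txnrd3 with these 35, and none of it was called either. Dio2, the thyroid hormone deiodinase, differed most, at −1.003 in HF + LP against HF (SE 0.23, adjusted p = 0.217).

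Genes whose products make reactive oxygen formed another list. In HF against NP 5 of 12 were higher and 0 lower at an unadjusted p under 0.05, where 5.17% of all genes were higher, and the median was 0.36. The cytosolic NADPH oxidase subunit Ncf4 led at 1.219 (SE 0.29, adjusted p = 0.039), and the catalytic subunit Cybb stood at 0.51 (adjusted p = 0.141), both components of the phagocyte oxidase. In HF + LP against HF 2 were lower at that level, where 2.43% of all genes were, Cybb at −0.41 (adjusted p = 0.822) and the monoamine oxidase Maoa at −0.59 (adjusted p = 0.873). Macrophage markers moved with these genes: their sum was 320.8 to 454 CPM in NP, 465 to 618 in HF and 302 to 439 in HF + LP, and all 12 were above 0 in HF against NP, 7 of them at an unadjusted p under 0.05. The median of these 12 was 0.482. All 3 neutrophil markers tested were also higher in HF against NP at that level, with a median of 1.062. They were higher in LP against NP too, with a median of 0.995, and their median was −0.025 in HF + LP against HF. Neutrophil markers were scarce, with a sum of 4.29 to 21 CPM over all mice. The part of macrophage and neutrophil RNA in the oxidase differences was not tested. None of the 12 oxygen sources was called.

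The only gene called among these related lists was the peroxisomal Pex11a. It drives peroxisome division, and it was higher in HF + LP than in LP by 0.89 (SE 0.15, adjusted p = 0.00839) and over both protein levels by 0.55 (adjusted p = 0.00552). Neither call held without LP mice 13 and 20, where Pex11a stood at 0.69 (adjusted p = 0.0746) and 0.45 (adjusted p = 0.0119), without the libraries rich in atrial markers, at 0.67 (adjusted p = 0.0907) and 0.43 (adjusted p = 0.0345), or with the replicate block, at 0.56 (adjusted p = 0.742) and 0.39 (adjusted p = 0.181). Scp2, the peroxisomal sterol carrier and thiolase gene, stood at 0.39 for the fat main effect (adjusted p = 0.0245). Of the 29 peroxisome genes tested, 6 were higher and 1 lower in HF + LP against LP (unadjusted p under 0.05), where 6.26% of all genes were higher and 9.66% lower. Without LP mice 13 and 20 these were 3 and 0, where 2.69% and 4.81% of all genes were. None of the 29 passed that level in HF against NP, against 13.1% of all genes. All 3 metallothioneins were above 0 in HF against NP, with a median of 0.42, and none passed an unadjusted p of 0.05 in any comparison. Of 13 genes of heme and iron handling, which share Ftl1, Fth1, Blvra and Blvrb with the NRF2 targets, Ftl1 and the erythroid heme enzyme Alas2 (0.78, adjusted p = 0.363) were higher at that level in HF against NP, where 5.17% of all genes were. The transferrin receptor Tfrc stood at −0.82 in LP against NP (adjusted p = 0.387), and none of the 13 was called.

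**Figure D4:**
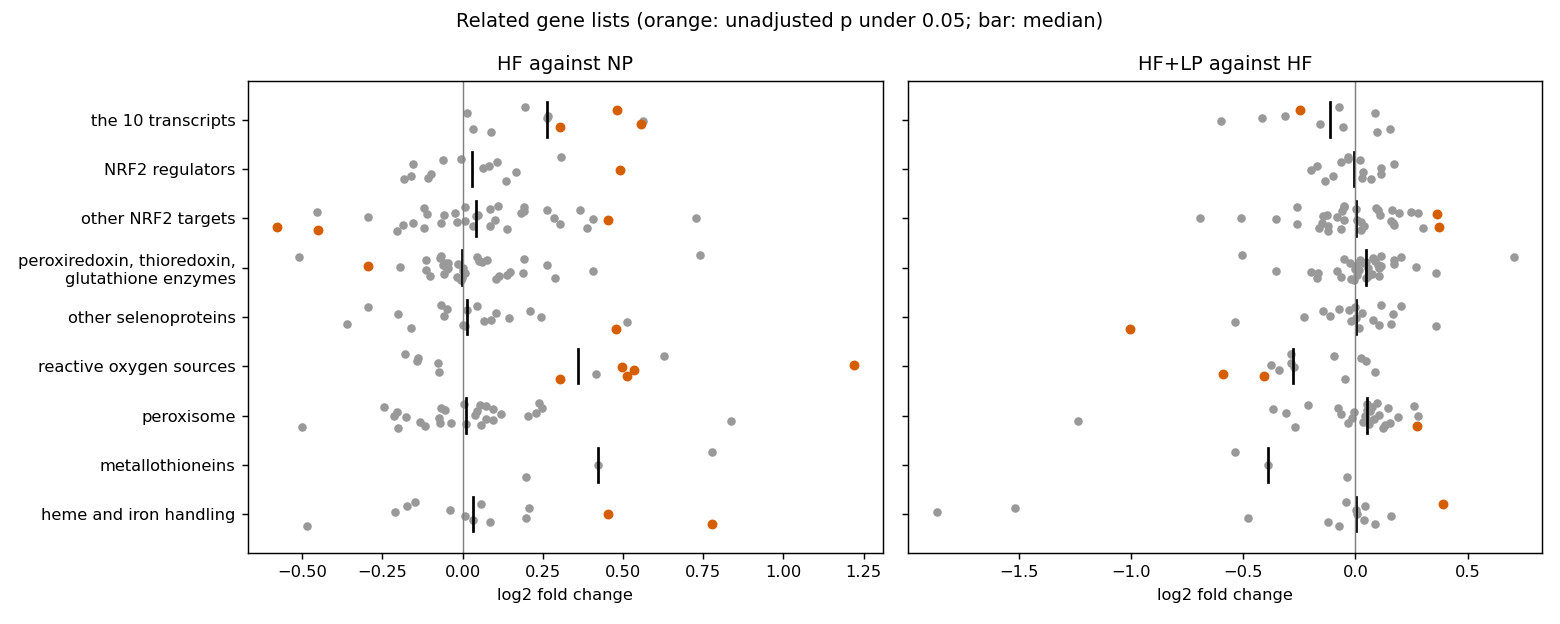
Log2 fold change (x axis) of the tested genes of each list (rows) in HF against NP and in HF + LP against HF. Points are genes, orange points have an unadjusted p under 0.05, and black bars are medians. In HF against NP the median was 0.26 for the 10 transcripts, 0.36 for the oxygen sources and 0.04 for other NRF2 targets.

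No pair of the 10 transcripts had a Pearson r across mice that passed correction over the 45 pairs. By Spearman rho 2 pairs did. Hmox1 with Gpx3 had a rho of 0.732 (permutation p = 0.00028, adjusted p = 0.0126) and an r of 0.549 (permutation p = 0.0123, adjusted p = 0.0926, r 0.596 without the pair of mice farthest from the median and 0.605 within diets), and without the libraries rich in atrial markers the rho was 0.618 and the r 0.528. Nqo1 with Sod2 had a rho of 0.68 (permutation p = 0.00122, adjusted p = 0.0274) and an r of 0.458 (permutation p = 0.0431, adjusted p = 0.184, r 0.641 without the farthest pair and 0.422 within diets), and without those libraries the rho was 0.704. The Pearson r of log2 CPM ranged from −0.67 (Nqo1 with Gpx3) to 0.594 (Gclm with Gpx1), with a median of 0.105. Without the pair of mice farthest from the median these extremes were −0.275 and 0.35. LP mouse 13 had the lowest Nqo1 and the highest Gpx3 of all mice, and without it their r was −0.348. Each had closer partners elsewhere among the 10158 other genes with a base mean over 50. The transcript most like Sod2 was Uqcrb (r = 0.933), followed by Ndufb6 (0.927) and Atp5f1 (0.914). Cat was most like Pomp (0.896), and then Cpt2 and Saraf (0.892 each). Srxn1 was most like Meox1 (0.879), Sh3pxd2b (0.855) and Dnajc27 (0.853), and Gpx3 most like Slc7a7 (0.958), Tbc1d1 (0.946) and Myl1 (0.931). The closest to Nqo1 was Adssl1 (0.892), to Gclc Psip1 (0.889), to Txnrd1 Nup153 (0.877), to Gpx1 Pdpn (0.85), to Hmox1 B3gnt8 (0.813) and to Gclm Cops2 (0.726). These r values describe the same 20 libraries and carry no test.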

How the data were processed

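RNA from the left ventricle of 20 mice, 5 per diet, was sequenced by the authors as 3′ QuantSeq libraries. The methods and the submitters' processing notes give BlueBee as the aligning platform, and the notes list GRCm38 as build and DESeq2 1.22.2 among the tools. The values deposited by the authors are raw counts per gene, not normalized, with 60 or more counts over the libraries for each listed gene. Groups came from the sample labels, and no 2 libraries were identical. Symbols and positions were taken from GENCODE M21 by Ensembl identifier (15917 of 15956 matched), promoters from RefSeq (GRCm38.p6).

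The counts were fitted with edgeR 4.0.16 (R 4.3.3, TMM, filterByExpr, quasi-likelihood test) in 1 model of the 4 diets and 7 contrasts, with Benjamini-Hochberg adjustment over 13991 genes. The thresholds, adjusted p under 0.01 and base mean over 50, are those of the study, which used DESeq2 as its test. Here the main test is edgeR, and DESeq2 is an alternative. The text names the 10 transcripts, the up to 3 genes of smallest p in each related list, and the genes of highest Pearson r with each of the 10 (prior count 2), except 1 gene that is not reported here. Alternatives were DESeq2 1.42.0, other size factors, filters and thresholds, a library number covariate, a replicate block, only the groups compared, and each mouse left out. Correlation p-values are two-sided permutation tests with 100000 resamples. The same code was tested on simulated data with planted changes larger than most differences given here. That test therefore does not say whether differences of this size would be called. Totals of 12559607 to 23331907 counts set the precision, and p-values measure the spread between mice. The genes and lists were chosen with earlier results of these data known.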

Additional observations from a re-analysis of the deposited data

Results flagged for a closer look

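Each of the 40 sets of 5 values (10 transcripts in 4 diets) was examined for a mouse far from the others of its diet by Dixon's criterion, which picks about 1 set in 20 by chance, and 3 sets held one. Gpx3 in LP mouse 13 was 28660 normalized counts, against 9285 in the next LP mouse. Gpx3 in HF + LP mouse 3 was 6953, against 3292 in the next. These mice had atrial markers at 17760 and 5269 CPM. Sod2 in LP mouse 20 was 6429, against 8571 in the next lowest LP mouse, and this mouse had T cell markers at 356 CPM.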

How the results depend on the processing

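The number of the 10 transcripts called in HF against NP was 0, and 2 with DESeq2 (Srxn1 and Gpx1) and 1 at an adjusted p under 0.05 (Srxn1). For the fat main effect it was 0, and 1 with DESeq2, 1 at an adjusted p under 0.05, and 0 to 1 with each mouse left out in turn. It stayed 0 in the other comparisons under every alternative run. Among 17 gene results with an unadjusted p under 0.05, 5 values changed sign, all for Gpx3. The block takes NP mice 6 and 8 and LP mice 13, 15 and 20 out of the diet differences, as no other mouse shares their number. LP mice 13 and 15 held the most Gpx3 in LP. In the fit with the animal number as a replicate block, Gpx3 was −0.55 in LP against NP, 0.17 in HF + LP against LP and 0.14 for the interaction. Without the libraries rich in atrial markers, an alternative added after seeing the data, it was −0.28 in LP against NP and 0.25 for the interaction. Leaving out LP mice 13 and 20 together was also added then. Equal animal numbers belong to different mice, and their deviations did not pair in all groups (mean r −0.24 over 3 pairs of NP and HF, −0.04 over 3 pairs of NP and HF + LP and over 5 of HF and HF + LP, 0.05 over 2 of LP and HF, 0.18 over 2 of LP and HF + LP, and 0.21 in 1 pair of NP and LP). The block lowered the calls over all genes from 37 to 2 in HF against NP, from 140 to 13 for the fat main effect and from 14 to 0 in HF + LP against LP, where few mice share a number. DESeq2 made 158, 389 and 81 such calls, and an adjusted p under 0.05 gave 157, 502 and 45. In the same order they were 31, 94 and 5 with the library number as a covariate, 76, 149 and 4 without LP mice 13 and 20, and 51, 70 and 2 without the libraries rich in atrial markers. With each mouse left out in turn they ran from 20 (without HF mouse 4) to 69 (without LP mouse 13), from 79 (without HF mouse 4) to 198 (without LP mouse 5), and from 1 (without HF + LP mouse 2) to 16. With only the groups compared in the model the calls were 61 in HF against NP and 0 in HF + LP against LP. Causes of these changes were not tested. Hmox1, with 801 counts in all, had the fewest counts of the 10.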
